A study of Mus musculus with 4 samples.

Results

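Solute carriers are the membrane proteins that move nutrients, ions, metals and metabolites into and out of cells and their compartments, and their gene symbols start with Slc followed by a family number. Their expression was examined in scrapings of the colon of male C57BL/6J mice, which hold the mucosa and the submucosa. A symbol of this kind was carried by 364 of the 19938 measured genes. Of these, the 46 genes of the mitochondrial Slc25 family and 7 single genes (Slc26a3, Slc9a3, Slc10a2, Slc51a, Slc51b, Slc11a2 and Slc40a1) lay outside the rule. Of the 311 genes left, 207 had a linear signal above 50 on at least 1 array and are described here, and 104 did not reach this floor. The floor was passed on all 4 arrays by 185 of the 207 genes and on fewer arrays by 22. Just above it, by their highest signal, were Slc34a3 (50.3), Slc36a3 (50.5) and Slc1a3 (51.3), and just below it were Slc39a6 (49.9), Slc32a1 (49.2) and Slc22a8 (48.8). The members were thus chosen by their signal, and their levels are a description. The symbol also takes in 5 genes that are no transporters (Slc9a3r1, Slc9a3r2, Slc4a1ap, Slc7a6os and Slc2a4rg-ps), and it keeps Slc8b1, a sodium-calcium exchanger of the mitochondrion that has no Slc25 symbol.

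The mice were young (4 months) or old (21 months), and all ate the low-fat purified diet during a run-in. For the last 2 weeks fat, in which palm oil took the place of lard, supplied 10% of the energy of the low-fat diet or 45% of that of the high-fat diet. Each of the 4 groups was 1 RNA pool, to which 6 young or 8 old mice contributed equal amounts, on 1 Affymetrix Mouse Gene 1.0 ST array. There was thus no replicate of any group, single comparisons have no p-value, and they set pools side by side rather than mice. In RNA from a whole scraping, fewer cells of a type and less RNA per cell cannot be told apart.

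The absorptive cells of the colon take up short-chain fatty acids, sodium, chloride and water and give off bicarbonate and potassium. Most sugar, amino acid and peptide uptake takes place earlier, in the small intestine, but colonocytes carry transporters for these solutes too, partly for their own supply. Solute carriers use the sodium, proton or solute gradients that ATP-driven pumps and channels keep up. Others sit in the Golgi apparatus, the endoplasmic reticulum, lysosomes or storage vesicles. There they load nucleotide sugars for the glycosylation of mucins, zinc for enzymes, or amines for secretion.

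All 10 colonocyte markers (among them Car1, Krt20 and Vil1) were above the floor, and their summed linear signal lay between 72965 and 75564 on the 4 arrays. Passing the floor does not by itself set colon apart, since 10 of 12 small intestinal enterocyte markers passed it too. Markers of other cells moved between arrays. The summed signal of 10 smooth muscle markers was 4030 on the young high-fat array and between 1579 and 1886 on the others. Acta2 made up much of it, with 1972 on that array and 694 to 989 elsewhere. Lmod1 (50.4 to 56.1) and Smtn (120 to 129) hardly moved, and Smtn was highest on the old high-fat array. That of 7 adipocyte markers, of which Lep was below the floor, was 578 on the young high-fat array, 1784 on the old high-fat array and 833 to 888 on the low-fat arrays. The sum of 10 leukocyte markers was 1008 and 1046 on the young arrays and 1881 and 1923 on the old arrays. Of 6 measured hepatocyte markers 4 were above the floor (Fgb and Ahsg were not), and the sum of the 6 was 1179 on the old low-fat array and 510 to 745 on the others, with Alb at 355 there and 29.8 to 33.7 elsewhere. Of 12 markers of small intestinal enterocytes 10 were above the floor (Lct and Treh were not), and the sum of the 12 was between 6947 and 7477 in young mice and between 8405 and 8699 in old mice. Among them Fabp6 had 461 (low-fat) and 674 (high-fat) in young mice and 1722 and 1202 in old mice. Apob had 1347 and 1391 in young and 2052 and 2030 in old mice. The other markers rose less, overlapped or, as for Sis and Lct, were lower on both old arrays. In the limma fit of age and diet over all genes, Fabp6 was higher in old mice with an adjusted p of 0.0389. The same fit called 4 of the leukocyte markers higher in old mice, Lyz2 and Cybb (adjusted p 0.0114 each), Ms4a1 (0.0144) and Cd8a (0.0174). Over the 207 solute carrier genes the median log2 signal was 8.13 to 8.18, and pairs of arrays correlated across these genes, which are not independent replicates, with Pearson's r from 0.9882 (young high-fat with old high-fat) to 0.9945 (young low-fat with old high-fat).

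The solute carriers varied between the 4 pools about as much as other genes did. The range of a gene over the 4 arrays had a median of 0.28 on the log2 scale, beside 0.26 for all 12666 genes tested. It stayed under 0.50 for 173 of the 207 genes (83.6%, against 89.3% of all genes). It exceeded 1, a 2.0-fold difference, for 0 solute carrier genes, beside 1.03% of all genes. The steadiest were Slc22a15, at signals of 162 to 165, Slc35b2, which brings the sulfate donor PAPS into the Golgi apparatus, at 220 to 225, and Slc17a5, the lysosomal sialic acid exporter, at 889 to 921. The widest range was that of Slc28a2, a sodium-driven purine nucleoside transporter, with 0.96. It was followed by Slc37a2 (0.80), Slc4a4 (0.75), Slc8a1 (0.74), Slc7a11 (0.74) and Slc35d1 (0.69).

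**Figure D1:**
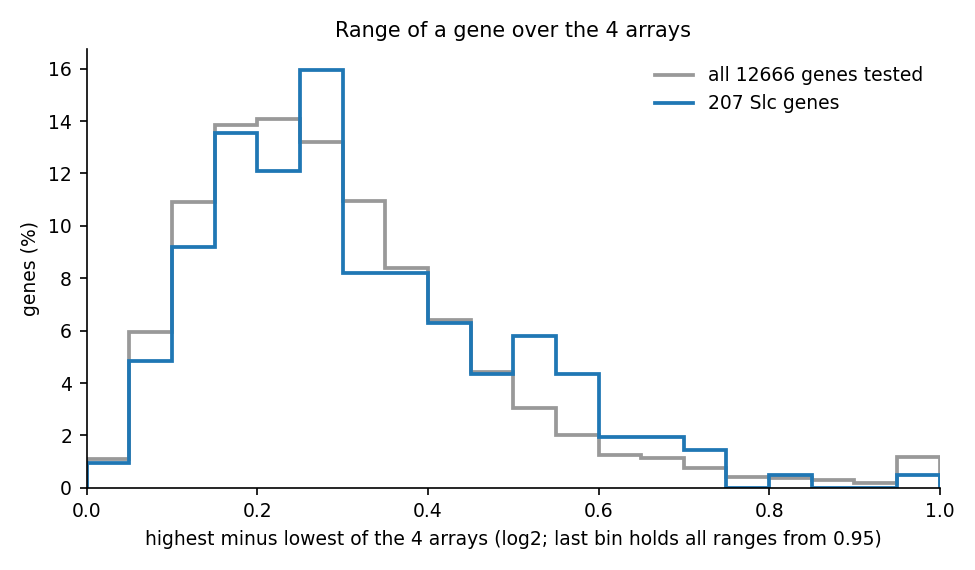
Range of the log2 signal over the 4 arrays (x axis, log2, the last bin holding all ranges from 0.95) against the percentage of genes in each bin (y axis), for the 207 Slc genes and for all 12666 genes tested. Both distributions peak at small ranges, and the Slc genes end at 0.96 whereas other genes reach 3.58.

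The carriers of short-chain fatty acids, the main fuel of the colonocyte, are described first. Signals are given hereafter in the order young low-fat, young high-fat, old low-fat and old high-fat. Signals of different genes come from different probes and are not compared with each other. Slc5a8, the sodium-coupled carrier of short-chain fatty acids and lactate, had 3854, 4250, 4530 and 3727. Slc16a1 (MCT1), the proton-coupled carrier of the same acids, had 3252, 3093, 3356 and 3267, and its old arrays lay above its young arrays by 0.05 and 0.08 (log2) only. Over the 11 of 16 carriers of mono- and dicarboxylates above the floor, the median log2 difference of old against young was 0.03 on low-fat diet and -0.04 on high-fat diet, and that of high-fat against low-fat was -0.03 in young and -0.06 in old mice. Within this class Slc13a2, the citrate and succinate carrier of the brush border, was lower on both old arrays (1299, 1193, 1053 and 1160). Slc16a7 (MCT2) stood out on the young high-fat array (121, 152, 110 and 101).

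Amino acid carriers formed the largest class, with 36 of 57 genes above the floor. Their medians lay between -0.04 and 0.04 in all 4 comparisons. Slc6a14, a broad carrier of neutral and cationic amino acids known from the distal gut, had signals of 7088, 7961, 7387 and 7366. Slc38a2 and Slc1a5, both glutamine carriers, stayed within 2107 to 2434 and 1291 to 1453. Slc3a2, the heavy chain that brings light chains of the Slc7 family to the membrane, had 1284, 1167, 1399 and 1462. Slc7a9, the cystine light chain, had 332, 401, 416 and 486, so that both old arrays exceeded both young arrays, by 0.33 on low-fat and 0.28 on high-fat diet. Slc1a1, a glutamate carrier, was high on the old high-fat array alone (315, 314, 337 and 445). Slc43a1 (65.3, 82.7, 53.5 and 67.6) was higher on high-fat diet at both ages, by 0.34 each time. Of the 5 peptide carriers, 4 were above the floor. Among them Slc15a1 (PEPT1), the proton-coupled carrier of di- and tripeptides, had 1210, 883, 1144 and 1034, lower with high-fat diet by 0.45 in young and 0.15 in old mice. Slc15a2 had 91.1, 106, 127 and 86.2.

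Of 29 sugar and polyol carriers, 19 were above the floor, with medians between -0.05 and 0.08. Slc2a1 (GLUT1), the basal glucose carrier, varied from 2170 to 2454, and Slc5a1 (SGLT1), the sodium-glucose cotransporter, from 1658 to 1832. The fructose carrier Slc2a5 (GLUT5) had 106, 94.4, 80.2 and 87.2, with both young arrays above both old ones. Slc2a4 (GLUT4), the insulin-responsive carrier of muscle and fat, had 67.5, 87.6, 75.1 and 59.5. Its highest array was the one with the highest sum of smooth muscle markers and the lowest sum of adipocyte markers (578). Its lowest, the old high-fat array, had the highest adipocyte sum (1784). The part of smooth muscle or fat in its signal was not tested. Slc37a2, a sugar phosphate exchanger of the endoplasmic reticulum, had 2062, 1320, 2116 and 2302. The young high-fat array was low for this gene and the other 3 arrays lay close together.

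Sodium, proton and bicarbonate exchangers (10 of 18 above the floor) had medians of -0.01 for age on low-fat diet, 0.14 for age on high-fat diet, -0.10 for diet in young and 0.01 for diet in old mice. Slc9a2 (NHE2), an apical sodium-proton exchanger, varied from 2976 to 3203. The basolateral anion exchanger Slc4a2 (AE2) had 1492, 1131, 1066 and 1280, highest on the young low-fat array. Slc4a4 (NBCe1), the basolateral sodium bicarbonate cotransporter, had 826, 1054, 846 and 627, and its low-fat arrays differed by 0.03 whereas its high-fat arrays differed by 0.75. Among 11 of 20 carriers of chloride, sulfate and other anions, the sodium-potassium-chloride cotransporter Slc12a2 (NKCC1), which feeds chloride secretion, had 3399, 3846, 3611 and 3088. Slc13a1, a sodium sulfate cotransporter, had 1458, 2046, 1488 and 1416, with the young high-fat array alone standing apart. Slc12a7 (KCC4) had 837, 573, 659 and 732, highest on the young low-fat array. The medians of these anion carriers lay between -0.08 and -0.06 in all 4 comparisons.

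Metal carriers (25 of 29 above the floor) included Slc39a4 (ZIP4), the apical zinc importer, which had 2629, 2825, 2564 and 2407. Several zinc exporters of the Slc30 family load vesicles and the secretory pathway. Slc30a5 (911, 1101, 975 and 919), Slc30a7 (1100, 1277, 1261 and 1118) and Slc30a4 (1211, 1572, 1290 and 1111) peaked on the young high-fat array. In all, 5 of the 8 genes of this family above the floor and 10 of the 25 metal carriers (40.0%) did so. The share was 34.3% among all solute carrier genes and 24.2% among all genes. By contrast, Slc30a1 (465, 562, 613 and 518), which exports zinc across the plasma membrane, was highest on the old low-fat array, and Slc30a3 and Slc30a10 on the young low-fat array. Slc39a7 (ZIP7), which releases zinc from the endoplasmic reticulum and the Golgi apparatus, went the other way, with 453, 332, 362 and 498. Medians of the class were 0.03 and -0.07 for age on low-fat and high-fat diet and 0.08 and -0.09 for diet in young and old mice.

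Carriers of nucleosides and nucleotide sugars (30 of 35 above the floor) had the highest class median for diet in young mice among the classes with at least 10 genes, together with the amine carriers (0.12 for both). For 17 of these 30 genes (56.7%) the young high-fat array was the highest, beside 34.3% of all 207 solute carrier genes and 24.2% of all genes. The summed signal of the smooth muscle markers was highest on that array too, and its part here was not tested. Slc35a3, which brings UDP-N-acetylglucosamine into the Golgi apparatus, had 3362, 4005, 3838 and 3524, and Slc35a1, the CMP-sialic acid carrier, had 1783, 2249, 1767 and 1727. Slc35d1, a UDP-glucuronic acid carrier of the endoplasmic reticulum, had 684, 940, 745 and 581. The UDP-galactose carrier Slc35a2 took the opposite course, with 883, 715, 745 and 1012. Slc28a2 had 58.7, 96.7, 63.3 and 49.7, so that the high-fat arrays were the highest and the lowest and the low-fat arrays lay between them. Its near copy Slc28a2b stayed below the floor on every array, and how far both share probes was not tested.

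The 13 of 16 carriers of vitamins, choline and cofactors showed medians between -0.04 and 0.09. Slc44a4, a thiamine pyrophosphate carrier of the colon, was steady at 5487 to 5944. Slc5a6, the sodium-dependent carrier of biotin and pantothenate, had 220, 174, 228 and 262, and Slc46a1, the proton-coupled folate carrier, had 336, 297, 357 and 386, so that the high-fat arrays of both were the lowest (young) and the highest (old). Of 8 calcium and phosphate carriers above the floor among 14, Slc20a1 (PiT-1) had 4137, 3589, 4218 and 3806 and was lower with high-fat diet at both ages. Slc34a1, a sodium phosphate cotransporter best known from the kidney, had 83.5, 53.2, 69.6 and 62.2. Slc8a1 (NCX1), the plasma membrane sodium-calcium exchanger that is abundant in muscle, had 279, 390, 314 and 233. Its maximum was on the array with the highest sum of smooth muscle markers. The part of that tissue in its signal was not tested. The mitochondrial exchanger Slc8b1 had 621, 389, 525 and 621.

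Of 6 fatty acid carriers 3 were above the floor, and Slc27a4, which takes up and activates long-chain fatty acids, had 598, 533, 489 and 622. Slc27a1 had 278, 249, 237 and 304, which is the same order of arrays. High-fat diet thus went with less of both in young mice (-0.17 and -0.16) and with more of both in old mice (0.35 and 0.36). Slc27a2 had 120 to 129. Among 11 of 15 carriers of amines and osmolytes, Slc6a4, the serotonin transporter that clears serotonin released by enterochromaffin cells, had 356, 286, 410 and 412. Slc18a1, which fills the vesicles of enteroendocrine cells with amines, had 169, 220, 180 and 159. The medians of this class were 0.09 and -0.12 for age on low-fat and high-fat diet. Of 35 carriers of organic ions, drugs and bile acids 16 were above the floor, with medians of -0.04 and -0.12 for age on low-fat and high-fat diet. Slc17a4, an anion carrier of the gut, had 2327, 2783, 2280 and 2534, and Slc22a5, the carnitine carrier, had 465 to 501. The only iodide carrier, Slc5a5, had 57.1 to 70.6. Of 7 genes with no substrate assigned, 4 were above the floor, and Slc23a4 had 49.6, 48.4, 59.8 and 65.5. Among the genes that are no transporters, Slc9a3r1 (NHERF1), a scaffold of apical transporters, had 1568, 1584, 1419 and 1783.

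**Figure D2:**
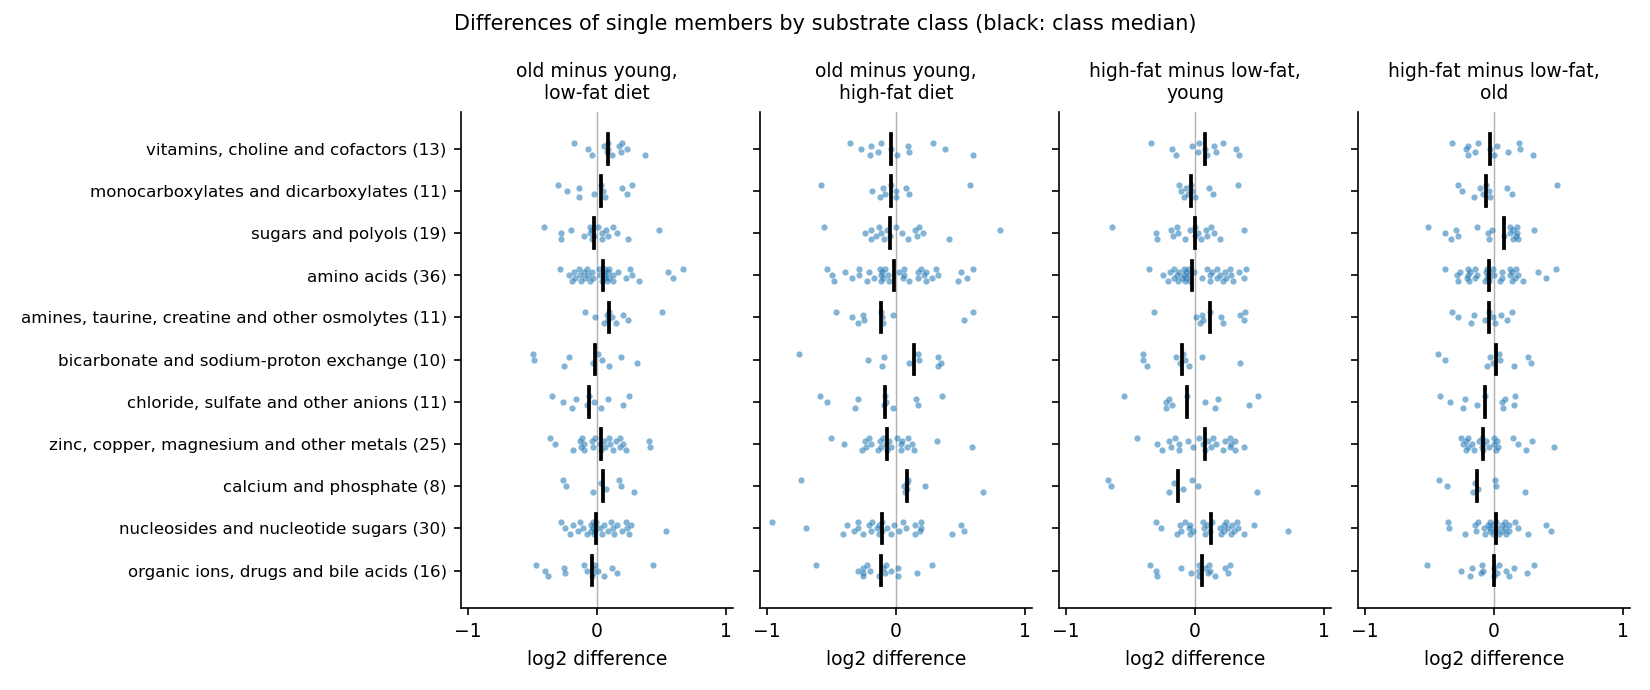
Log2 difference (x axes) of each Slc gene, 1 point per gene, by substrate class (rows, number of genes in brackets, classes with at least 8 genes) in each of the 4 single comparisons, with black bars at the class medians and positive values meaning higher in old mice or on high-fat diet. The medians lie between -0.14 and 0.14, and single genes spread to both sides of 0 in every class.

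To ask which transporters differed with age and with diet, single pairs of arrays were compared by the 2.0-fold rule of the study. Of the 207 solute carrier genes, 0 were over 2.0-fold in any of the 4 comparisons. Among all genes tested, 0.426% were over 2.0-fold for age on low-fat diet, 0.663% for age on high-fat diet, 0.118% for diet in young mice and 0.103% for diet in old mice. At 1.5-fold, 2 solute carrier genes differed by age on low-fat diet (0.966%, beside 2.26% of all genes). Both, Slc7a15 and Slc7a8, were higher in old mice, as 1.71% of all genes were, and 0 were lower, beside 0.545%. Slc7a15 passed the floor on the old low-fat array alone, so that its direction follows from the floor. On high-fat diet 12 differed by age (5.80%, beside 3.41% of all genes), 6 of them higher and 6 lower in old mice. Of all genes, 2.44% were higher and 0.971% lower in that comparison. High-fat diet in young mice gave 4 genes over 1.5-fold (1.93%, beside 1.45%), 1 higher and 3 lower on high-fat diet, beside 0.813% and 0.64% of all genes. In old mice it gave 0, beside 1.14% of all genes.

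An additive limma fit of age and diet over all 12666 genes called 0 solute carrier genes for age, beside 0.395% of all genes, of which 0.363% were higher and 0.0316% lower in old mice. At an unadjusted p under 0.05 there were 11 solute carrier genes for age (5.31%, beside 3.68% of all genes), 8 higher and 3 lower in old mice. Of the 8, Slc7a15 and Slc23a4 passed the floor on old arrays only, so that their direction follows from the floor. For diet the fit called 0 solute carrier genes and 0 genes in all (0.00%). At an unadjusted p under 0.05 it held 1 solute carrier gene for diet (0.483%, beside 0.718% of all genes), Slc34a1, which was lower on high-fat diet by 0.41 ± 0.17 (log2, SE, 2 arrays against 2). With 1 pool per group the fit keeps 1 residual degree of freedom, which is the disagreement of the age differences of both diets, so that its SE is no measure of how pools of the same group vary.

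The amino acid carrier Slc7a8 (LAT2), an exchanger of neutral amino acids that pairs with Slc3a2, had signals of 201, 195, 302 and 295. Its old arrays did not overlap its young arrays, and the difference was 0.59 on either diet. In the fit it had the lowest adjusted p among the solute carrier genes, at 0.59 ± 0.15 (SE) and an adjusted p of 0.33, and so did not pass. Slc7a11 (xCT), another partner of Slc3a2, takes up cystine in exchange for glutamate and so supplies the synthesis of glutathione. Its signals were 49.2, 56.2, 72.0 and 82.0, that is 0.55 higher in old mice on either diet, and the fit gave 0.55 ± 0.15 with an adjusted p of 0.428. Its signal on the young low-fat array was below 50, so that this fold is not exact. Slc6a12 (BGT1), a carrier of betaine and of the transmitter GABA, had 66.2, 68.5, 93.6 and 103, with 0.55 ± 0.16 in the fit and an adjusted p of 0.432. Slc35f2, of the nucleotide sugar transporter family, had 211, 221, 306 and 299, with 0.48 ± 0.16 and an adjusted p of 0.65. These 4 genes had the lowest p for age in the fit, a choice that favours old arrays lying apart from young ones. On all 4 the 2 old arrays stood above the 2 young ones. The sums of the leukocyte and the small intestinal enterocyte markers did so too. So did that of 5 endothelial markers, 3 of them above the floor (225, 214, 266 and 271). Among the enterocyte markers Fabp6, Apob (1347, 1391, 2052 and 2030), Apoa1 and Mttp were higher on both old arrays. Sis (303, 458, 264 and 257) and Lct were lower on both, and the others overlapped. The part of those cells in these signals was not tested.

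The promoters of 3 of these genes are shown because each has 1 start in the RefSeq table, so that the 250 bases before it can be read without a choice among starts. They are from RefSeq, mouse assembly GRCm38.p6, and run 5′ to 3′ on the strand of the gene. Capitals mark matches, on either strand, to the core of the amino acid response element, TGATGNAA, by which ATF4 acts on amino acid carriers. The antioxidant response element core TGACNNNGC, by which NRF2 acts, was searched as well.
Slc7a8, chr14:54781887-54782136, minus strand: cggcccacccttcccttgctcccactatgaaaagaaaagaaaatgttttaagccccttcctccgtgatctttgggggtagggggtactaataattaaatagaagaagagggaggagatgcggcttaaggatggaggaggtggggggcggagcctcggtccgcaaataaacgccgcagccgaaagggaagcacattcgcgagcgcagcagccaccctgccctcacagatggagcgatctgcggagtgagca
Slc7a11, chr3:50443614-50443863, minus strand: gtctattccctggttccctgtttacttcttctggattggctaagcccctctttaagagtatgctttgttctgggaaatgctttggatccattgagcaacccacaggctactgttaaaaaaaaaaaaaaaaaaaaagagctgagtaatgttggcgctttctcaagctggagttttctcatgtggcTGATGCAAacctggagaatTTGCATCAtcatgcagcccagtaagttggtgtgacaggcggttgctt
Slc35f2, chr9:53771285-53771534, plus strand: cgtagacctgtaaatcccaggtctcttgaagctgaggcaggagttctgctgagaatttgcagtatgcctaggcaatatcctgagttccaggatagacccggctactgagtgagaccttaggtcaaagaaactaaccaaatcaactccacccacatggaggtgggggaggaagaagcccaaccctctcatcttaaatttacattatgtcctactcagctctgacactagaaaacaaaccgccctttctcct
The window of Slc7a11 held TGATGNAA on both strands, from -66 to -59 on the plus strand of the gene and from -47 to -40 on the other. Neither of the other windows held a match. Of all 32851 promoter windows in the table, 3.45% held TGATGNAA and 10.2% held TGACNNNGC. Of the 217 windows of the 167 solute carrier genes that matched the table, 3.23% and 14.3% did. A match of letters is not a bound site.

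Some other genes were also apart by age on both diets at smaller differences. Both old arrays exceeded both young arrays for 29 of the 207 genes (14.0%, beside 16.1% of all genes), and both young arrays exceeded both old arrays for 35 (16.9%, beside 12.3%). The first set held Slc3a2, Slc7a9, Slc6a4 and Slc28a3 (95.1, 79.0, 113 and 114), a nucleoside carrier. It also held Slc7a15, Slc16a12, Slc1a3 and Slc23a4, which passed the floor on old arrays only. The floor itself thus favoured their place in this set. The second set held the urate carrier Slc22a12 (91.1, 74.3, 68.8 and 60.5), Slc22a17, described as a receptor of lipocalin 2 (82.9, 84.8, 59.7 and 71.0), and Slc17a2 (74.9, 90.6, 63.0 and 59.1). In the fit, these 3 were lower in old mice by 0.35, 0.36 and 0.43, each with an adjusted p of 1. Slc7a15 was over 1.5-fold higher in old mice on low-fat diet (33.4, 37.5, 52.8 and 44.0), but 3 of its 4 signals were below 50.

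**Figure D3:**
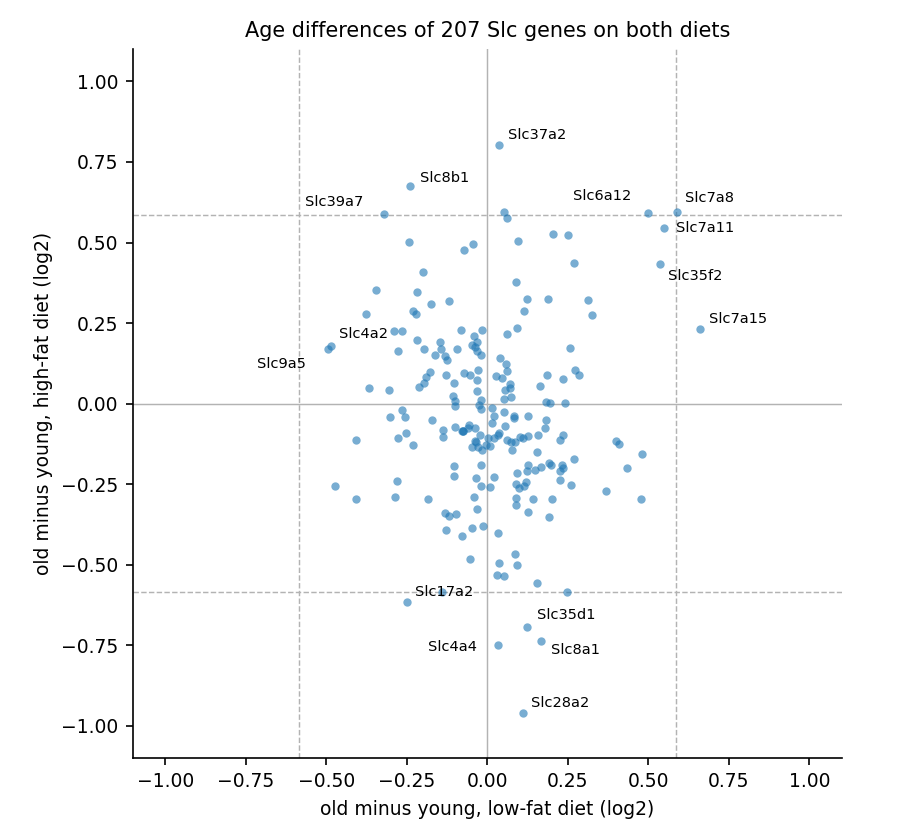
Log2 difference of old against young mice on low-fat diet (x axis) and on high-fat diet (y axis) for each of the 207 Slc genes (1 point per gene), with dashed lines at 1.5-fold. Slc7a8, Slc7a11, Slc6a12 and Slc35f2 lie at the upper right, and Slc28a2, Slc8a1, Slc4a4 and Slc35d1 lie at the bottom near 0 on the x axis.

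The sign of the age difference was the same on low-fat and high-fat diet for 88 of the 207 genes (42.5%, beside 39.1% of all genes), 39 higher and 49 lower in old mice, and was opposite for 119. Many of these differences were near 0, and the share was near that of all genes. The diet difference had the same sign at both ages for 70 genes (33.8%, beside 35.7%). The young high-fat array was the highest of the 4 for 71 solute carrier genes (34.3%, beside 24.2% of all genes) and the lowest for 56 (27.1%, beside 28.5%). The old high-fat array was the lowest for 68 (32.9%, beside 21.4%). These shares were not tested, since each array is 1 pool and the genes are not independent.

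Among the 12 genes over 1.5-fold by age on high-fat diet, the 6 lower in old mice were Slc28a2 (-0.96), Slc4a4 (-0.75), Slc8a1 (-0.74), Slc35d1 (-0.69), Slc17a2 (-0.62) and Slc13a4, a sulfate carrier (-0.59). They were chosen by their excess on the young high-fat over the old high-fat array, which favours a maximum on the former, and Slc13a4 was above 50 on that array alone. On low-fat diet their age differences were between -0.25 and 0.25. The 6 higher in old mice were Slc37a2 (0.80), Slc8b1 (0.68), Slc5a6 (0.59), Slc7a8 (0.59), Slc6a12 (0.59) and Slc39a7 (0.59). Of these, Slc7a8 and Slc6a12 had a like age difference on low-fat diet (0.59 and 0.50), whereas Slc37a2, Slc8b1, Slc5a6 and Slc39a7 had 0.04, -0.24, 0.05 and -0.32. The same young high-fat pool thus entered the age comparison on high-fat diet and the diet comparison in young mice, and it had the highest smooth muscle and the lowest adipocyte marker sum of the 4. The part of these cells in the differences was not tested.

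High-fat diet in young mice was accompanied by more Slc28a2 (0.72) and by less Slc8b1 (-0.68), Slc34a1 (-0.65) and Slc37a2 (-0.64), the 4 genes over 1.5-fold. Next came Slc13a1 (0.49) and Slc8a1 (0.48) on the high side and Slc12a7 (-0.55) and Slc15a1 (-0.45) on the low side. In old mice the differences with diet stayed under 1.5-fold for all 207 genes. The lowest were Slc15a2 (-0.56), Slc22a21, a carnitine carrier (-0.52), and Slc5a9, a sodium-dependent sugar carrier (-0.51), all 3 highest on the old low-fat array. The highest included Slc7a10 (0.48), Slc39a7 (0.46) and Slc35a2 (0.44), all highest on the old high-fat array. Slc7a10 had 52.9, 50.4, 50.4 and 70.1, so that all its arrays but the old high-fat one lay just above the floor. Slc16a12 (40.2, 39.4, 41.9 and 58.7) passed the floor on the old high-fat array alone, so that its difference of 0.49 is not exact and its direction follows from the floor. High-fat arrays lay above low-fat arrays at both ages for 21 genes (10.1%, beside 11.8% of all genes) and below them for 21 others (10.1%, beside 10.9%). The first set included Slc43a1 and Slc17a4, and the second Slc15a1, Slc20a1 and Slc34a1.

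**Figure D4:**
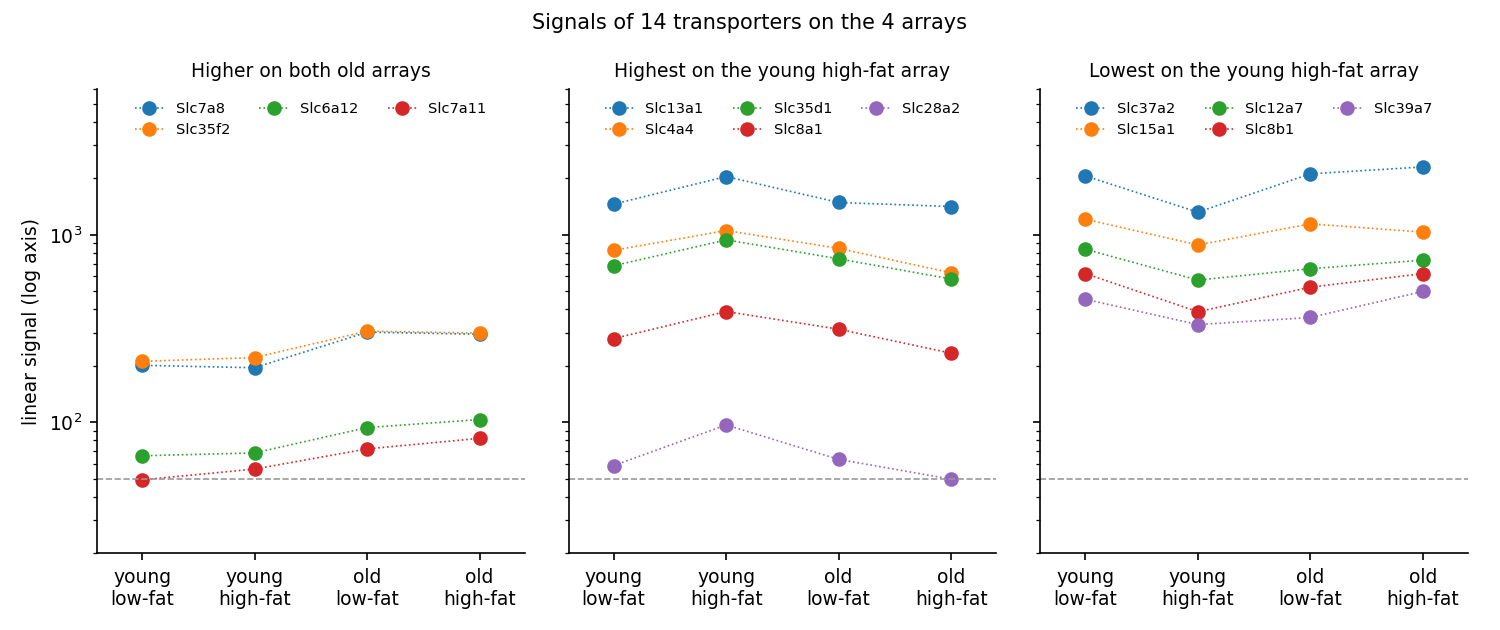
Linear signal (y axis, log scale) of 14 Slc genes on the 4 arrays (x axis), 1 point per array and gene, with no error bar because each group had 1 pool, and with a dashed line at the floor of 50. Slc7a8 (201, 195, 302 and 295) separates old from young arrays, whereas Slc28a2 (58.7, 96.7, 63.3 and 49.7) peaks on the young high-fat array.

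Probe sets of 1 gene did not always give the same difference. Of 9 members with several probe sets, 2 (Slc19a1 and Slc38a1) had a second one whose log2 difference lay more than 0.58 from that of the main one in some comparison. The second probe set of Slc8a1 gave 0.51 for age on low-fat diet, where the main one gave 0.17, and both gave lower values in old mice on high-fat diet (-0.87 and -0.74). For the folate carrier Slc19a1 the main and second probe set gave -0.18 and 0.56 for age on low-fat diet. For Slc38a1, a glutamine carrier, they gave -0.28 and 0.46 for diet in old mice. The direction of Slc19a1 and Slc38a1 in those comparisons therefore depends on the probe set.

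Differences were also set beside the genomic span of the genes. Over the 207 solute carrier genes the difference with age on low-fat diet correlated with the log10 span at r = 0.292, that with age on high-fat diet at -0.114, that with diet in young mice at 0.161 and that with diet in old mice at -0.271. Over all genes with a span these values were 0.113, -0.047, 0.024 and -0.164. The 69 solute carrier genes with the longest spans had a median of 0.09 for age on low-fat diet and of -0.10 for diet in old mice, whereas the 69 with the shortest had -0.04 and 0.04. Genes are not independent of each other, and these values are a description.

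Pumps, channels and regulators on which these carriers depend were examined as a list of 32 genes, of which 30 were measured and 28 were above the floor. None of the 28 was over 2.0-fold in a single comparison, and the fit called 0 of them for age and 0 for diet, with 0 at an unadjusted p under 0.05 in either. Their medians were 0.09 and 0.02 for age on low-fat and high-fat diet and -0.02 and -0.05 for diet in young and old mice. Kcnn4, a calcium-activated potassium channel, had signals of 505, 328, 410 and 589, and Aqp8, a water channel of the surface epithelium, had 3466, 2604, 3725 and 4150. The high-fat arrays of both were again the lowest in young and the highest in old mice, as for Slc5a6 and Slc46a1. Atp12a, the colonic proton-potassium pump, was highest on the young low-fat array (2875, 1838, 2025 and 2284). Scnn1b, a subunit of the epithelial sodium channel, was lower on both old arrays (107, 106, 87.7 and 85.8).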

How the data were processed

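RNA of colon scrapings was measured on 4 arrays, 1 pool per group, and 0 value columns were left unmapped. The authors deposited log2 signals from Robust Multi-array Average (RMA, version not stated), which subtracts background, quantile normalizes and summarises probes. The study's methods describe probe sets defined by Entrez gene, whereas the rows carry the manufacturer's transcript cluster identifiers. Of 35556 probe sets, 21789 were annotated with 1 gene and used, 1621 with several and 12146 with none. The Entrez identifiers of 21698 were found in a RefSeq table of GRCm38.p6, used for names and spans. For the deposited rows no build is given in the sources used here. The probe set with the highest mean stood for a gene. Genes with a linear signal above 50 on at least 1 array were tested, after 11 pancreatic acinar genes were removed in place of the study's atlas filter, which left 12666.

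Single comparisons followed the study's 2.0-fold rule. With 1 array per group there is no replicate check, and the number of arrays limits precision. An additive fit of age and diet, not part of the study, was made with limma 3.58.1 in R 4.3.3 (lmFit, eBayes, Benjamini-Hochberg adjusted p under 0.05, two-sided). Its p-values compare 2 pools with 2 and not mice. On simulated data for the age fit with 12666 genes it called 74% of 100 genes changed by 0.75 (log2), 100% of 100 changed by 1.5 and 0.321% of 12466 unchanged genes. The simulated noise was drawn for each array independently, with the spread that the fit itself had estimated. These shares thus hold under the assumptions of the fit and do not show how pools of the same group vary. A rule set which genes could be named, and not all that met it are named here. It took genes over 2.0-fold and the 10 highest and 10 lowest differences of each comparison. It also took the 10 largest changes each way in each fit and the 3 highest signals of each class. The 3 genes on either side of the floor, genes with discordant probe sets, and members of the marker and partner lists were included too. A few more were named for their role after their values were seen, and Slc17a1 to Slc17a5 were placed among organic ions after values were seen. Members, classes, lists and motifs were chosen with earlier results of these data known. Alternatives were other floors and fold thresholds, median centring, quantile normalization, the mean of a gene's probe sets, other settings of the fit and fits without 1 array. Crossed pairs of arrays, leaving out the 5 genes that are no transporters, and 1.5-fold with another scaling or floor were added after the data were seen.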

Additional observations from a re-analysis of the deposited data

Results flagged for a closer look

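For 6 solute carrier genes the difference with age had opposite signs on low-fat and high-fat diet and these differences lay more than 0.8 apart on the log2 scale. This is 2.90% of the 207 genes, beside 3.26% of all 12666 genes tested, and so close to the share of all genes. Each group had 1 array, so these differences between diets were not tested. The age difference was lower on high-fat than on low-fat diet for the nucleoside carrier Slc28a2 by -1.07, for the sodium-calcium exchanger Slc8a1 by -0.91, for the sulfate carrier Slc13a4 by -0.83 and for the UDP-glucuronic acid carrier Slc35d1 by -0.82. It was higher on high-fat diet for the zinc carrier Slc39a7 by 0.91 and for the mitochondrial exchanger Slc8b1 by 0.92. Of the first 4, Slc28a2 had a signal just below 50 on the old high-fat array and Slc13a4 was above 50 on 1 array only, so that their folds are not exact.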

How the results depend on the processing

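The count of 0 solute carrier genes over 2.0-fold held in every comparison under no floor, floors of 20 and 100, a mean signal above 50, 3.0-fold, quantile normalization, the mean of probe sets, crossed pairs of arrays and without the 5 genes that are no transporters. Median centring, which moved the median of all genes by at most 0.05 (quantile normalization by 0.06), gave 1 gene for age on high-fat diet, Slc28a2. At 1.5-fold, age on low-fat diet gave 2 genes (1 with centring, 1 with quantile normalization, 1 with a mean signal above 50), age on high-fat diet 12 (11, 13 and 11), diet in young mice 4 (4, 4 and 4) and diet in old mice 0 (1, 0 and 0). The fit called 0 solute carrier genes for age and for diet under every alternative that kept all 4 arrays. Their lowest adjusted p for age lay between 0.109 (fit of age alone) and 0.401 (no floor) in these. Fits without 1 array held age alone or diet alone, and a lone array of an age or diet is assumed there to vary like the others. Their counts are therefore not set beside those of the additive fit. The count of all genes called for age was 50, but 28 with no floor and 116 with quantile normalization, and for diet 7 with quantile normalization instead of 0. Of 68 class medians, 1 moved by more than the 0.16 taken as spread: with members above the floor on 4 arrays only, the genes with no assigned substrate went from -0.04 to -0.35 for age on high-fat diet. Of the differences of 56 named genes, 1 moved: Slc8a1 for age on low-fat diet, from 0.17 to 0.34 with the mean of its probe sets. No paired analysis was possible because each group had 1 array and so shares only the number of its single replicate.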
